A study of Mus musculus with 4 samples.

Results

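Chromatin accessibility at 9 germline genes was compared between an intermediate of factor-driven conversion, 2 kinds of pluripotent cell and fibroblasts. The genes, 9 of 21631 protein-coding genes, were Prdm1, Stra8, Sycp1, Sycp3, Dazl, Ddx4, Mael, Piwil2 and Tex19.1, and the peaks were selected by position alone. Every ATAC-seq peak over one of these gene bodies or within 20 kb of it was counted, in GRCm38 coordinates. That gave 212 of the 552855 peaks of the 4 peak lists. Merged across libraries, the peaks formed 96 of 256632 regions. ATAC-seq uses a transposase that inserts adapters into accessible DNA, so a peak marks a stretch of open chromatin.

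There were 4 libraries, 1 per group, so no difference below has a replicate check and no p-value is given. The study set out to convert fibroblasts to neural stem cells with pluripotency factors. By the day 9 of its title, the intermediate was taken at the end of the factor step. The intermediate came from mouse embryonic fibroblasts of a B6/129 background, bred from a Rosa26-TdTomato B6 female and a Col1a-OSKM 129 male and carrying Nanog-CreER. Doxycycline switched on the transgenic factors Oct4, Sox2, Klf4 and Myc (OSKM), and 4-hydroxytamoxifen activated the Cre. Both were in the medium between day 1 and day 9, the JAK1 inhibitor was used at 0.5 µM, and 50000 tdTomato-positive cells were sorted free of feeders. The culture text is written for this library and repeated for the others, whose own culture is not described in it. The title of that library names day 9, but its source field says day 6. Because tdTomato records past Nanog-driven Cre activity, the values describe cells selected for it. The induced pluripotent stem cells (iPSC) and the mouse embryonic fibroblasts (MEF) both carry the strain label A12 (Mbd3 flox/-), where Mbd3 is a subunit of the NuRD repressor complex. The embryonic stem cells (ESC) are the line v6.5. Strain label and cell type cannot be told apart except between iPSC and MEF.

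Germline genes are expressed in the precursors of eggs and sperm and are kept silent in most somatic cells. Several of them are held silent by DNA methylation of CpG-rich promoters and by complexes that contain E2F6, MGA and MAX. The MGA and MAX proteins bind the E-box CACGTG. Prdm1 encodes BLIMP1, which specifies primordial germ cells and also acts in lymphocytes and other tissues. Stra8 answers retinoic acid at meiotic entry, and Sycp1 and Sycp3 build the synaptonemal complex. Dazl and Ddx4 encode RNA-binding proteins of germ cells, Mael and Piwil2 act in piRNA-guided silencing of transposons, and Tex19.1 restrains retrotransposons in germ cells and placenta.

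The lists held 133235 peaks in the intermediate, 132875 in iPSC, 129533 in ESC and 157212 in MEF. The height the authors give each peak is not scaled to library size, and the read depth behind the lists is unknown. Heights of several libraries are therefore given side by side and not compared, and ranks refer to a library's own list. A low height can come from fewer cells with an open site or from less access per cell, and these cannot be told apart. Marker genes were chosen with earlier results of these data known, so they describe the libraries and do not test their identity. A peak within 1 kb of the start was counted. Of 8 pluripotency markers such as Nanog and Zfp42, 7 had one in the intermediate, 8 in iPSC, 8 in ESC and 0 in MEF. Of 8 fibroblast markers such as Col3a1 and Postn, 0 had one in the intermediate, 2 in iPSC, 4 in ESC and 8 in MEF. Over all protein-coding genes the shares were 62.1%, 65.3%, 67.1% and 64.0% in the same order. Both gene ends were used for Dppa5a, Gdf3, Fbxo15, Pdgfrb and Tagln, whose strand is unknown.

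The promoter sequences of 8 of the genes were found in the RefSeq table of GRCm38.p6, each running from 250 bases before the start site to 50 from it. 6 are shown, chosen by their start peaks: Ddx4, Sycp1, Sycp3 and Mael had one in pluripotent cells alone, Tex19.1 in all but MEF and Dazl in every library. Those of Prdm1 and Stra8, with a start peak in every library too, are left out, and the choice lends no support to a link between sequence and peaks. Capitals mark CACGTG, which reads the same on both strands, and GCGGGAA or its complement TTCCCGC, a core of E2F sites. CCAAT (or ATTGG) and GGGCGG (or CCGCCC) were searched as well and are left in lower case. The sequences lie at chr13:112652261-112652560 on the minus strand for Ddx4, chr3:102936051-102936350 on the minus strand for Sycp1, chr10:88459337-88459636 on the plus strand for Sycp3, chr1:166238695-166238994 on the minus strand for Mael, chr17:50293571-50293870 on the minus strand for Dazl and chr11:121145893-121146192 on the plus strand for Tex19.1.
Ddx4: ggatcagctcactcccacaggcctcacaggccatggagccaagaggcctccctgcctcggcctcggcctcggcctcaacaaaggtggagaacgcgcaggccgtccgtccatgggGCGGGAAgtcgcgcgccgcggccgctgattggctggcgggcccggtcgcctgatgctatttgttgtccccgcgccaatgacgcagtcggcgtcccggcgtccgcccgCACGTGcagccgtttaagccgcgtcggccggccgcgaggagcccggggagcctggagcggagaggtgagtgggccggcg
Sycp1: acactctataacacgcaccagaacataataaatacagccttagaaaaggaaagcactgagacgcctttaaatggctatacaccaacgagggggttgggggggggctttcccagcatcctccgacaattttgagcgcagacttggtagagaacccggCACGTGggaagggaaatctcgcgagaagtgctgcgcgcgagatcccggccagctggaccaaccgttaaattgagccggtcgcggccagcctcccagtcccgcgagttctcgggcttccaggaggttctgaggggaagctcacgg
Sycp3: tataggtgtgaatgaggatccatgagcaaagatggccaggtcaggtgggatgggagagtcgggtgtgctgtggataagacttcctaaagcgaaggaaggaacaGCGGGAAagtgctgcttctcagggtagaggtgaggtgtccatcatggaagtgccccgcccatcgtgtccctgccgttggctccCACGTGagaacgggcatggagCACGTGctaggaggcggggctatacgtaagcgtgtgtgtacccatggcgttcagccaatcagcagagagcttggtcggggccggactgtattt
Mael: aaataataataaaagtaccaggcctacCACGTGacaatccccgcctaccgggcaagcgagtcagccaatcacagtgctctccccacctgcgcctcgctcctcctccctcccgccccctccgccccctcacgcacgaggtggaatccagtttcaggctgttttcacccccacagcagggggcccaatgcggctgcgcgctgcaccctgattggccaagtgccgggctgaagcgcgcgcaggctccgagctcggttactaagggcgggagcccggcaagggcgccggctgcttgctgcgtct
Dazl: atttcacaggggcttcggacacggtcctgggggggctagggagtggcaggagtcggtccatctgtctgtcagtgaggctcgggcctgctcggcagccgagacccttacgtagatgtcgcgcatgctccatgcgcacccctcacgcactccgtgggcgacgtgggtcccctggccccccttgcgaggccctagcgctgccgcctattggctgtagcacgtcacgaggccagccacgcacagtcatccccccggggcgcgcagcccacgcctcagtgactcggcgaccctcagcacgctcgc
Tex19.1: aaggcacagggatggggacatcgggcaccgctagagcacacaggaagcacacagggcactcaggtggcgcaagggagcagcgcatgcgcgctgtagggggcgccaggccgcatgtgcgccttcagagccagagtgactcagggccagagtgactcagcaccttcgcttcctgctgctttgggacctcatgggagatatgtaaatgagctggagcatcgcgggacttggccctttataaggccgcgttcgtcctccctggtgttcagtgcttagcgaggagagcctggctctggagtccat

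CACGTG was present in 4 of the 8 promoters, those of Ddx4, Sycp1, Sycp3 and Mael. Of 21045 promoters of protein-coding genes in the same table, 7.91% held it. Sycp3 had a pair of copies, from 64 to 59 and from 43 to 38 bases before its start, and Ddx4 had 1 from 29 to 24 bases before it. In Sycp1 the match lay 94 to 89 bases before the start and in Mael 223 to 218. GCGGGAA or its complement was found in Ddx4 and Sycp3 and in 6.02% of all promoters, and in Ddx4 it overlapped a GGGCGG match. CCAAT was found in 38.5% of promoters and GGGCGG in 46.7%, either strand counted, and among the 8 genes in all but Sycp1 and Tex19.1 for CCAAT and in Ddx4, Sycp3 and Mael for GGGCGG. Ddx4 had the highest ratio of observed to expected CpG, at 0.98, higher than in 90.2% of promoters. Sycp1 had 0.87, Dazl 0.80, Mael 0.78, Prdm1 0.77, Sycp3 0.67, Tex19.1 0.58 and Stra8 0.43, against a median of 0.57 over all promoters. A match describes the sequence and does not show that a factor was bound there.

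Fewer of the 9 genes had a peak at their start in the intermediate than in the pluripotent cells. A start peak, meaning one within 1 kb of the start site, was listed for 5 genes in the intermediate, 7 in iPSC, 8 in ESC and 3 in MEF. Among 21631 protein-coding genes the shares with a start peak were 62.1% in the intermediate, 65.3% in iPSC, 67.1% in ESC and 64.0% in MEF. The members' shares were 55.6% (Wilson 95% interval 26.7 to 81.1) in the intermediate, 77.8% (45.3 to 93.7) in iPSC, 88.9% (56.5 to 98.0) in ESC and 33.3% (12.1 to 64.6) in MEF. With so few genes each of these intervals holds the share over all genes of the same library. The patterns fell into 5 kinds. Dazl, Stra8 and Prdm1 had a start peak in every library, as did 54.8% of all genes. Tex19.1 had one in all but MEF. Ddx4, Sycp3 and Mael had one in iPSC and ESC alone, and Sycp1 in ESC alone (1.12% of all genes). Piwil2 had one in the intermediate alone (1.29%), with both gene ends used because its strand is unknown.

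**Figure D1:**
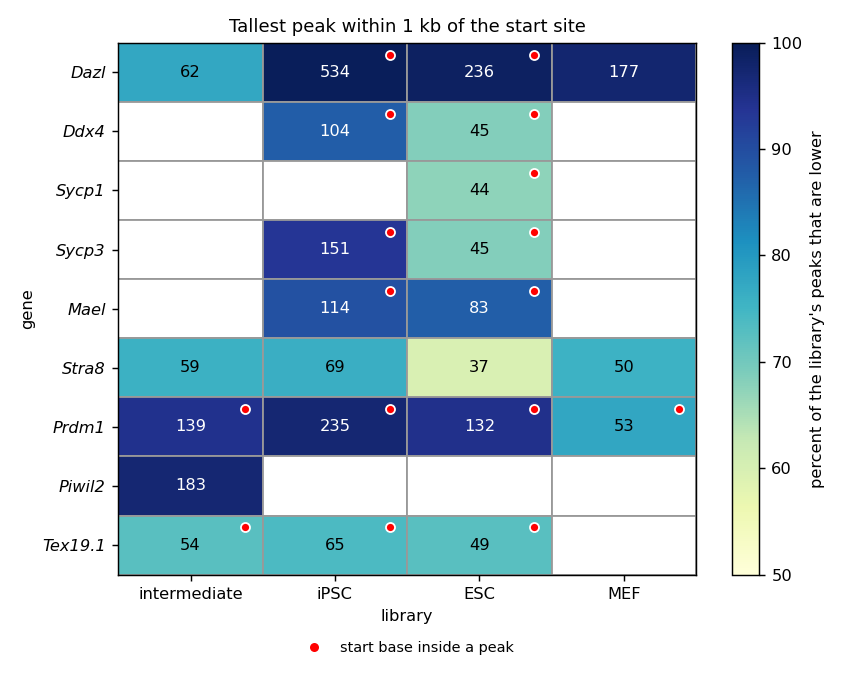
Tallest peak within 1 kb of the start of each gene (rows) in each library (columns), with both gene ends used for Piwil2; numbers are the deposited heights, colour is the percent of that library's own peaks that are lower, white cells have no listed peak, and red dots mark libraries in which a peak spans the start base. Ddx4, Sycp1, Sycp3 and Mael are white in the intermediate and in MEF.

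Against MEF, the intermediate had gained a start peak at Piwil2 and Tex19.1, 2 of the 9 genes or 22.2% (6.32 to 54.7), where 4.94% of protein-coding genes gained one. The iPSC library had gained one at 4 genes, 44.4% (18.9 to 73.3), against 6.68% of all genes, and ESC at 5, 55.6% (26.7 to 81.1), against 6.78%. Only Dazl, Stra8 and Prdm1 had a MEF start peak to lose, and 0 of these 3 lost it in the intermediate, iPSC or ESC. The intermediate lost one at 6.90% of all genes, iPSC at 5.39% and ESC at 3.68%, which is 10.8%, 8.41% and 5.74% of the genes with a MEF start peak, so 3 genes are too few to show a difference. Start peaks in iPSC and ESC that the intermediate lacked were those of Ddx4, Sycp3 and Mael, 33.3% (12.1 to 64.6), against 5.54% of all genes. Counting Tex19.1 too, 4 genes had a start peak in iPSC and ESC and none in MEF, against 5.23% of all genes. The intermediate had 1 that both pluripotent libraries lacked, at Piwil2, against 1.92%. Sycp1 was the 1 gene with a start peak in ESC and not in iPSC, against 3.98%, and the opposite occurred at 0 of the 9 and at 2.18% of all genes. A start peak in iPSC and ESC and in neither of the other libraries was found at 2.38% of genes. The list was drawn up from known germline genes, and these shares describe it without a test.

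The counts of every library were lower when a peak had to span the start base itself, most so in the intermediate and MEF. The start base is known for 8 of the 9 genes, of which 4 had a start peak in the intermediate, 7 in iPSC, 8 in ESC and 3 in MEF. Of these 8, a peak spanned the start base at 2 in the intermediate, Prdm1 and Tex19.1, at 6 in iPSC, 7 in ESC and 1 in MEF, which was Prdm1. Neither end of Piwil2 was spanned by a peak. Over the 17274 protein-coding genes with a known strand the share was 58.8% in the intermediate, 62.4% in iPSC, 64.3% in ESC and 60.4% in MEF. With a window of 0.5 kb, 3 genes had a start peak in the intermediate, and with 2.5 kb 5 had one in MEF. Piwil2 and Tex19.1 were among these 5, so with 2.5 kb neither had gained one over MEF in the intermediate. Ddx4, Sycp1, Sycp3 and Mael had no peak in the intermediate or MEF under any of these windows.

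**Figure D2:**
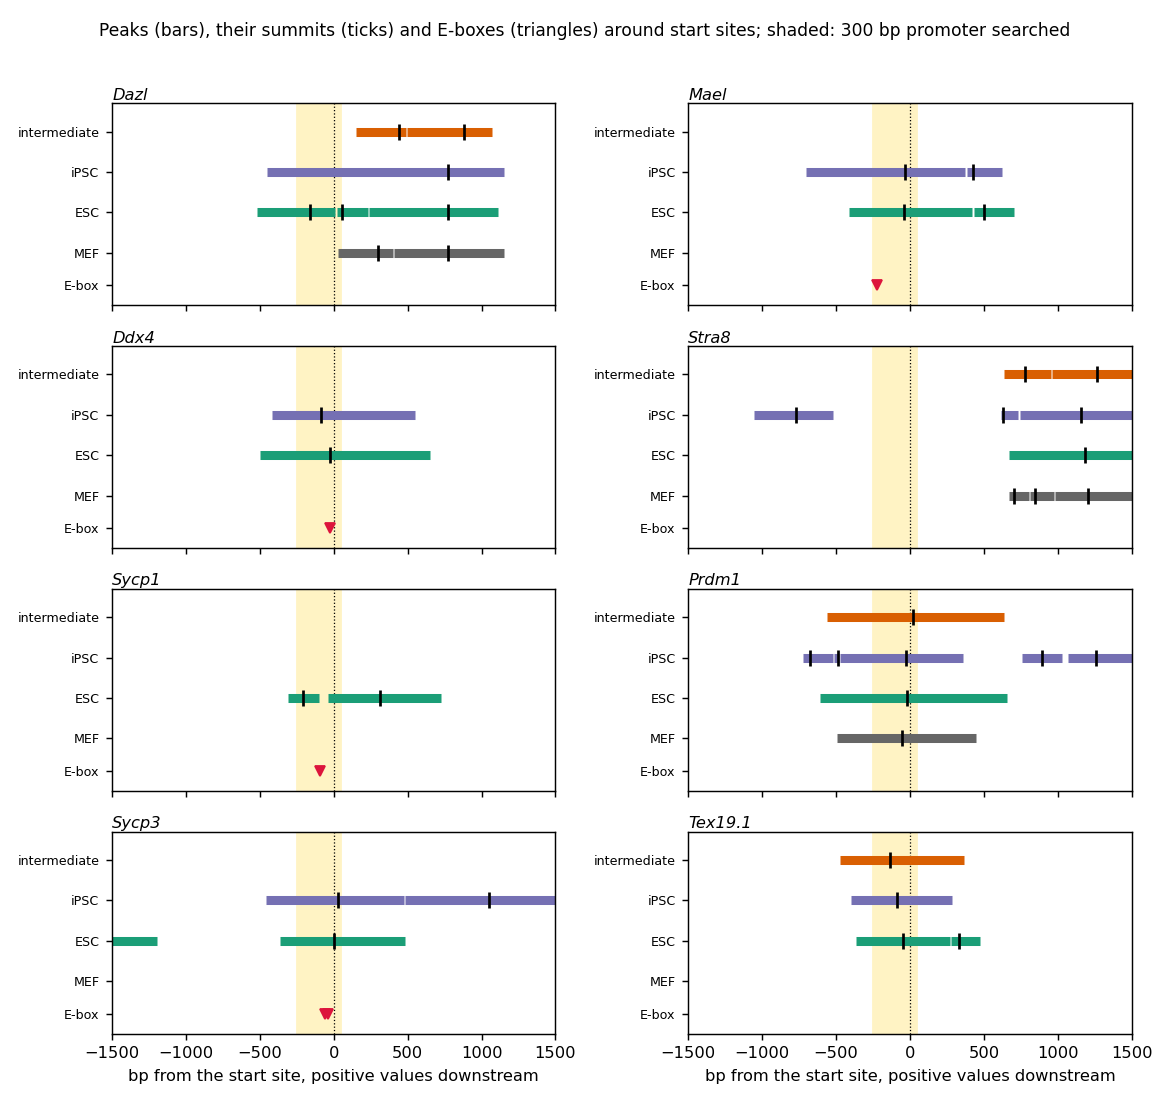
Peaks (bars) and their summits (black ticks) by distance in bp from the start site, positive values downstream, for the 8 genes with a known strand, with E-box matches as red triangles and the 300 bases searched shaded. The bars of Dazl in the intermediate and in MEF stop short of the start, while those in iPSC and ESC span it.

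Prdm1, the specification factor, was open at its start in every library. The region at the start site (chromosome 10, 44458091 to 44459470) reached heights of 139 in the intermediate, 235 in iPSC, 132 in ESC and 53 in MEF. These heights were above 94.5%, 97.2%, 94.7% and 77.7% of the peaks in their own lists, in the same order. Summits lay within 57 bases of the start, 23 bases after it in the intermediate and 27, 17 and 57 bases before it in iPSC, ESC and MEF. This start lies 69.8 kb inside the annotated gene. A region of 1240 bp just beyond the gene's outer edge (44528951 to 44530190) also held a peak in each library, with the intermediate at 111, iPSC at 157, ESC at 131 and MEF at 93. Between and around these, iPSC had the most regions. Of the 19 regions at Prdm1, 8 had a peak in iPSC alone, against 13.9% of all regions. Another 4 had one in iPSC and ESC alone, against 7.2%. The tallest of these 4 lay 61.4 kb upstream of the start, with 93 in iPSC and 25 in ESC. A downstream region 29.9 kb from the start (44427581 to 44428860) had the intermediate at 200, iPSC at 109 and ESC at 69, and had no peak in MEF.

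Stra8, the meiotic entry gene, had a region just inside its body in every library and none over its start base. The region (chromosome 6, 34921561 to 34922670) was 59 high in the intermediate, 69 in iPSC, 37 in ESC and 50 in MEF. The summits of the tallest peaks lay 1267, 1157, 1187 and 1202 bases downstream of the start in that order, beyond the 1 kb window that their edges reach into. The start used lies 785 bp inside the annotated gene. The outer edge of the gene was spanned by a peak of height 45 in iPSC alone (34919891 to 34920430), so with gene edges as starts Stra8 had a start peak in iPSC and in no other library. The intermediate alone had 5 neighbouring sub-peaks past the far end of the gene, 23.2 to 27.5 kb downstream of the start and at most 50 high.

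Both synaptonemal complex genes lacked a start peak in the intermediate and in MEF. Sycp3, a component of the chromosome axis, had heights of 151 in iPSC and 45 in ESC over its start (chromosome 10, 88459131 to 88460070). The summits lay 28 and 3 bases after the start in iPSC and ESC, and both peaks ran over the pair of E-boxes printed above. A second iPSC peak of height 117 followed directly downstream. Farther upstream, 15.1 kb from the start, a region held peaks of 74 in iPSC and 27 in ESC. Beyond the gene, 31.7 kb from the start, a region inside the neighbouring gene Chpt1 (88491271 to 88492200) was open in 3 libraries, with the intermediate at 65, iPSC at 72 and ESC at 33, and had no peak in MEF. The intermediate was thus listed as open in the flank of Sycp3 and not at its promoter.

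Sycp1, whose protein forms the transverse filaments between paired chromosomes, had a start peak in ESC alone (chromosome 3, 102935371 to 102936141), of height 44. A small second ESC peak of height 6 lay 101 bases upstream of the start, and the E-box fell between the pair. Within the 118 kb gene body 3 further regions were open in iPSC and ESC and in neither other library. They lay 69.2, 86.9 and 102 kb downstream of the start, with heights of 50, 193 and 93 in iPSC and 39, 45 and 45 in ESC. The iPSC library therefore had peaks inside Sycp1 and none at its start. The intermediate had no peak in the gene body and 3 regions in the flanks, at most 77 high, that were in no other list.

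Dazl, which promotes translation of germ cell messages, had a start peak in every library, and its extent differed between them. Heights within 1 kb of the start (chromosome 17, 50292471 to 50294140) reached 62 in the intermediate, 534 in iPSC, 236 in ESC and 177 in MEF. The 62 in the intermediate was above 77.5% of the peaks of that list, the 534 in iPSC above 99.7%, the 236 in ESC above 99.0% and the 177 in MEF above 97.5%. In iPSC, ESC and MEF the summit of the tallest peak fell on the same base, 775 bases downstream of the start, and in the intermediate it fell 880 bases downstream. The iPSC peak ran across the start, and in ESC a separate peak of height 39 covered it. In the intermediate the nearest peak stopped 150 bases inside the gene, and in MEF 30 bases inside it. The peaks of the intermediate and MEF at Dazl thus lie over the first part of the gene body and do not reach the start base.

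Ddx4, the germ cell RNA helicase also called Vasa, had start peaks of height 104 in iPSC and 45 in ESC (chromosome 13, 112651661 to 112652810). The summits lay 85 and 25 bases before the start, and the ESC summit fell inside the E-box, which spans 29 to 24 bases before the start. The gene had no peak in its body in the intermediate or in MEF. Its neighbour Slc38a9, an amino acid transporter whose start region lies 7.62 kb upstream, was open in every library, at 123 in the intermediate, 389 in iPSC, 165 in ESC and 120 in MEF.

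Mael, a piRNA pathway protein, had start peaks of 114 in iPSC and 83 in ESC (chromosome 1, 166238041 to 166239450), with summits 31 and 41 bases before the start. These heights were above 89.3% of the iPSC list and 87.4% of the ESC list. One region inside the gene, 22.8 kb downstream, was also open in iPSC and ESC, at heights of 29 and 25. The intermediate had 4 regions past the far end of the gene, 44.7 to 57.4 kb from the start and at most 62 high, found in no other list. The start of the neighbour Ildr2, 14.8 kb upstream, was 43 high in the intermediate, 136 in iPSC, 59 in ESC and 21 in MEF. One promoter of the locus was thus open in the intermediate while that of Mael had no listed peak.

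Piwil2, a PIWI protein that carries piRNAs, had the reverse pattern with the window of 1 kb. Both ends of the gene body stood for its start here. Its tallest peak was in the intermediate alone, of height 183 (chromosome 14, 70434731 to 70436030), above 97.1% of that list, and lay 868 bases inside the higher-coordinate end of the gene. A peak of 36 in the intermediate (70437661 to 70438390) lay on the other side of that end, between Piwil2 and Polr3d, which encodes a subunit of RNA polymerase III. In all, 7 of the 17 regions at Piwil2 were open in the intermediate alone, against 18.2% of all regions. In MEF alone 5 were open, against 32.4%. Several of the 7 were sub-peaks 10 bp from a neighbouring region, in some cases one open in other libraries too, so they are not 7 separate sites. A region within the gene (70428521 to 70429801) had the intermediate at 87, iPSC at 28 and ESC at 48 and had no peak in MEF. No iPSC or ESC peak lay within 1 kb of either end. A MEF peak of height 53 (70370901 to 70371450) lay just outside the 1 kb window of the lower-coordinate end. With a window of 2.5 kb Piwil2 had a start peak in MEF too, and with 0.5 kb it had one in no library.

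Tex19.1 was the one gene whose start was open in the intermediate, iPSC and ESC and not in MEF. The region (chromosome 11, 121145671 to 121146620) had the intermediate at 54, iPSC at 65 and ESC at 49. Those heights ranked above 72.6%, 74.0% and 72.6% of their own lists in that order. The summits lay 133, 88 and 48 bases before the start, inside the promoter printed above. MEF had a pair of small peaks, 28 and 18 high, 2.37 to 2.62 kb upstream. Among all protein-coding genes 2.85% had a start peak in the intermediate, iPSC and ESC and none in MEF.

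**Figure D3:**
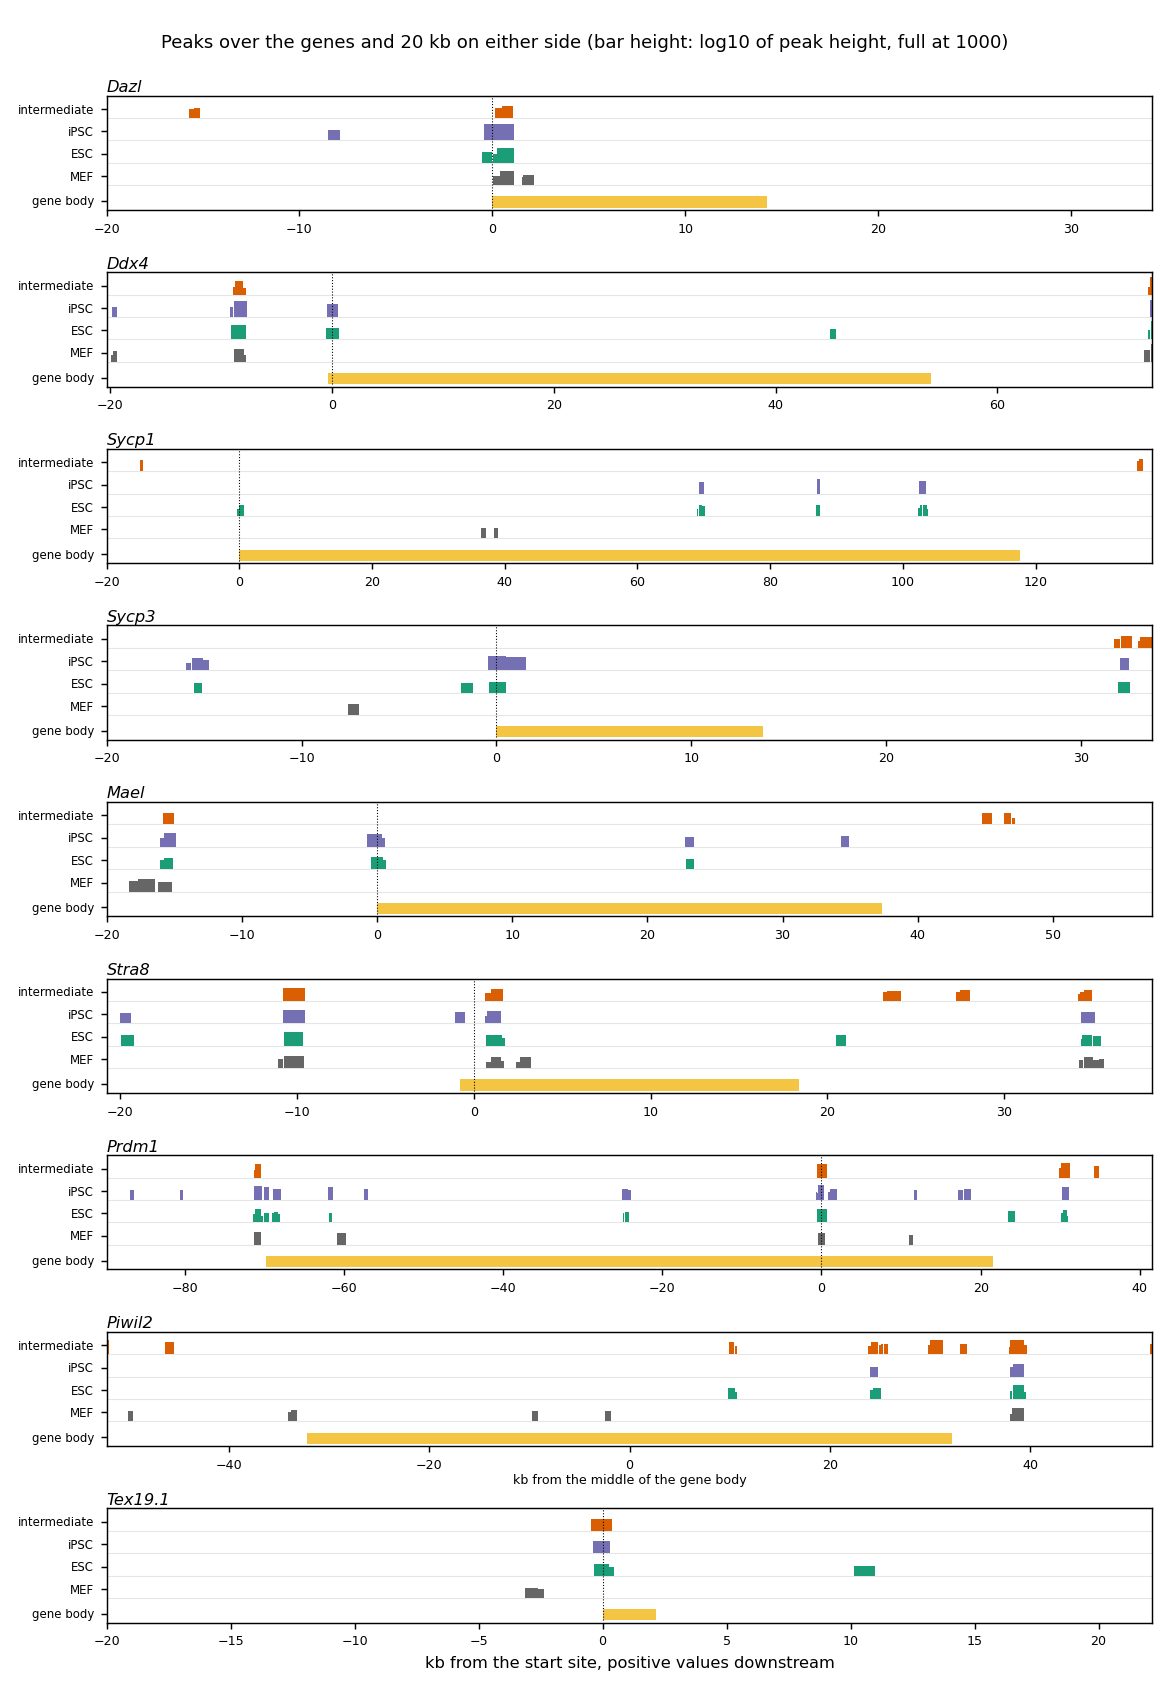
Peaks over each gene body (yellow) and the 20 kb on either side, by distance in kb from the start site (for Piwil2, from the middle of the gene body), with 1 row per library and bar height on a log10 scale of peak height. Within the body of Sycp1 iPSC and ESC have several peaks and the intermediate has none.

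Over all 9 loci the intermediate had 56 peaks, iPSC 52, ESC 61 and MEF 43, in a window of 0.774 Mb. Their median heights were 33, 42, 30 and 31, against 34, 39, 32 and 30 in the whole lists, so the peaks at these genes were of ordinary height. A gene body was touched by 16 of the 56 peaks of the intermediate, 28.6% (18.4 to 41.5), 31 of 52 in iPSC, 59.6% (46.1 to 71.8), 34 of 61 in ESC, 55.7% (43.3 to 67.5), and 17 of 43 in MEF, 39.5% (26.4 to 54.4). Over every protein-coding gene with the same flanks the shares were 45.7% for the intermediate, 51.0% for iPSC, 45.7% for ESC and 47.2% for MEF, and the intervals of iPSC, ESC and MEF hold them. Of the 16 peaks of the intermediate 10 were sub-peaks at Piwil2, without which the share was 15.4% (7.25 to 29.7). The difference between libraries was not tested. The gene bodies make up 0.414 Mb of the window and the flanks 0.36 Mb.

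Of the 96 merged regions, 41 were open in the intermediate, 42.7% (33.3 to 52.7), against 35.0% of all regions. For iPSC the count was 44, 45.8% (36.2 to 55.8), against 36.2%, and for ESC 39, 40.6% (31.3 to 50.6), against 31.2%. Compared with MEF, the intermediate had gained 29, iPSC 31 and ESC 27. As shares these were 30.2% (21.9 to 40.0), 32.3% (23.8 to 42.2) and 28.1% (20.1 to 37.8), next to 25.1%, 26.4% and 20.9% of all regions, and each interval holds the share over all regions. Joining sub-peaks at most 10 bp apart reduced the intermediate's count to 19, and without Prdm1 the iPSC count was 18. Regions lost from MEF were 19 of the 96 for the intermediate, 19.8% (13.1 to 28.9), 18 for iPSC, 18.8% (12.2 to 27.7), and 19 for ESC, 19.8% (13.1 to 28.9). Over all regions 35.8%, 35.8% and 35.4% were lost in the same order. The loci held 31 MEF regions to lose, 32.3% (23.8 to 42.2) of the 96, against 45.7% of all regions. As a share of these MEF regions, the intermediate lost 61.3% (43.8 to 76.3), iPSC 58.1% (40.8 to 73.6) and ESC 61.3% (43.8 to 76.3), where over all MEF regions the shares were 78.3%, 78.4% and 77.6%. The intermediate kept 12 of the 31, 38.7% (23.7 to 56.2), against 21.7% of all MEF regions. All 12 were also open in iPSC and ESC, as were 70.9% of all MEF regions that the intermediate kept. Of the 12, 6 lay within 1 kb of the start of a neighbouring gene and 3 within 1 kb of the start of one of the 9 genes.

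**Figure D4:**
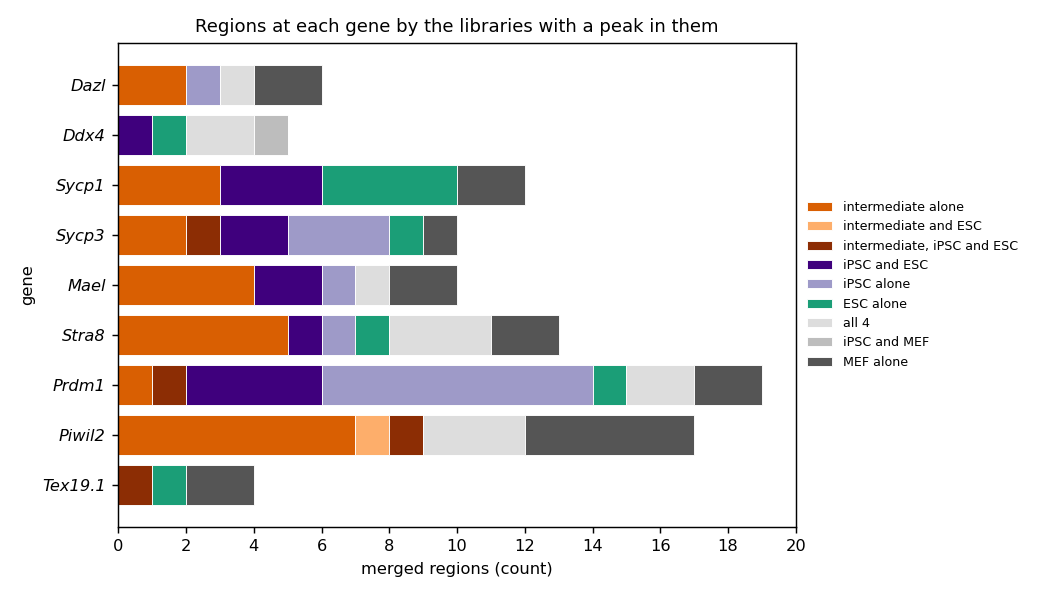
Number of merged regions at each gene, coloured by the set of libraries with a peak in them. Regions open in the intermediate alone are most numerous at Piwil2 (7) and Stra8 (5), and those open in iPSC alone at Prdm1 (8). Sub-peaks of one site count separately. Over all regions 18.2% were open in the intermediate alone and 13.9% in iPSC alone.

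Most regions gained in the intermediate lay beside the genes, and most gained in iPSC and ESC lay in them. In the intermediate 7 of 29 gained regions touched a gene body, 24.1% (12.2 to 42.1), in iPSC 22 of 31, 71.0% (53.4 to 83.9), and in ESC 18 of 27, 66.7% (47.8 to 81.4). Taken over every protein-coding gene with the same flanks, the shares were 49.7% for the intermediate, 56.3% for iPSC and 48.3% for ESC. The intervals of iPSC and ESC hold these shares, and that of the intermediate lies below its own. Of the 7, 6 were at Piwil2. Without Piwil2 the share was 5.00%, 1 of 20 (0.888 to 23.6), and the remaining region was the start of Tex19.1. With sub-peaks joined the shares were 21.1%, 75.0% and 65.4% in the same order. Sub-peaks of one site count separately, and the intervals cover counting error over regions alone. This split was noticed in the data and has no test.

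Of the 17 regions open in iPSC and ESC and not in MEF, 4 had a peak in the intermediate, 23.5% (9.56 to 47.3), where the share over all such regions was 35.8%, inside the interval. Such regions made up 17.7% (11.4 to 26.5) of the 96, against 11.2% of all regions. The 4 were the start of Tex19.1 and the regions already described at Prdm1, Piwil2 and Sycp3. The other 13 comprised 4 at Prdm1, 3 at Sycp1, 2 each at Sycp3 and Mael and 1 each at Ddx4 and Stra8, the starts of Ddx4, Sycp3 and Mael among them. Among all regions 8.69% were open in iPSC and ESC and not in the intermediate, against 13.5% (8.09 to 21.8) at the 9 genes. Another 24 regions, 25.0% (17.4 to 34.5), were open in the intermediate and in neither iPSC nor ESC, against 19.9% of all regions. None of these 24 was open in MEF, and over all regions 46706 of 51179 such regions were not either. Of the 24, 20 lay in the flanks, and the share of this class in flanks over all genes was not computed.

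Start peaks were also counted at further germline genes, from lists made for comparison. Over all protein-coding genes the shares with a start peak were 62.1% in the intermediate, 65.3% in iPSC, 67.1% in ESC and 64.0% in MEF. The differences between libraries within a list were not tested. Of 16 piRNA pathway genes, 6 had a start peak in the intermediate, 9 in iPSC, 10 in ESC and 4 in MEF, which is 37.5% (18.5 to 61.4), 56.2% (33.2 to 76.9), 62.5% (38.6 to 81.5) and 25.0% (10.2 to 49.5). The start peaks of Rnf17, Mov10l1 and Tdrd1 were in iPSC and ESC alone, at heights of 118 and 80 for Rnf17, which encodes a Tudor-domain protein. Tdrd5 and the piRNA methyltransferase gene Henmt1 had one in the intermediate, iPSC and ESC, and Tdrd12 had one in the intermediate and ESC. Asz1 had one in iPSC, Piwil1 in ESC and Piwil4 in MEF alone. Of 18 genes of meiotic chromosomes, 10 had a start peak in the intermediate, 12 in iPSC, 15 in ESC and 8 in MEF, or 55.6% (33.7 to 75.4), 66.7% (43.7 to 83.7), 83.3% (60.8 to 94.2) and 44.4% (24.6 to 66.3). Dmc1, the meiotic recombinase, gained one over MEF in the intermediate (41 high there, 65 in iPSC and 123 in ESC), as did Hormad2 and Syce2. Sycp2 and Syce1, both of the synaptonemal complex, had one in iPSC and ESC alone, Hormad1 and Tex12 in ESC and Tex11 in iPSC. Spo11 was without one in iPSC, and Smc1b had one in ESC and MEF.

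Among 17 further germ cell regulators the counts were 6 in the intermediate, 11 in iPSC, 12 in ESC and 5 in MEF. As shares these were 35.3% (17.3 to 58.7), 64.7% (41.3 to 82.7), 70.6% (46.9 to 86.7) and 29.4% (13.3 to 53.1), next to 62.1%, 65.3%, 67.1% and 64.0% of all genes. Brdt, a bromodomain protein of spermatogenesis, Meioc, Taf7l, Slc25a31 and Nobox had a start peak in iPSC and ESC alone. Sohlh2 and Dnd1 had gained one in the intermediate too, at heights of 32 and 34. Figla had one in ESC and Sohlh1 in MEF alone. Of 8 genes of primordial germ cell specification, 3 had a start peak in the intermediate, 5 in iPSC, 6 in ESC and 3 in MEF, or 37.5% (13.7 to 69.4), 62.5% (30.6 to 86.3), 75.0% (40.9 to 92.9) and 37.5% (13.7 to 69.4), and each of these intervals holds the share over all genes. Lin28a was the one that gained it in the intermediate. Prdm14 and Nanos3 had one in iPSC alone, Tfap2c and Dppa3 in ESC alone and Ifitm3 in ESC and MEF. Both ends stood for the start in 12 of these 59 genes, and a start peak may belong to a neighbour.

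Of 18 genes whose products repress germline promoters, 16 had a start peak in the intermediate, 88.9% (67.2 to 96.9), against 62.1% of all genes. In iPSC, ESC and MEF each, 18 of the 18 had one, against 65.3%, 67.1% and 64.0% of all genes, and 16 had one in all 4 libraries, against 54.8%. Those with a peak throughout included Mga, Max and Dnmt1, singled out here after their values were seen. The intermediate lacked one at E2f6 (heights 32, 54 and 45 in iPSC, ESC and MEF) and at Dnmt3l, a cofactor of DNA methylation in germ cells (53, 59 and 30 in the same libraries). All 18 had a MEF start peak to lose, and 2 of them lost it in the intermediate. Of all genes with a MEF start peak 10.8% lost it there, which is 6.90% of all genes.

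**Figure D5:**
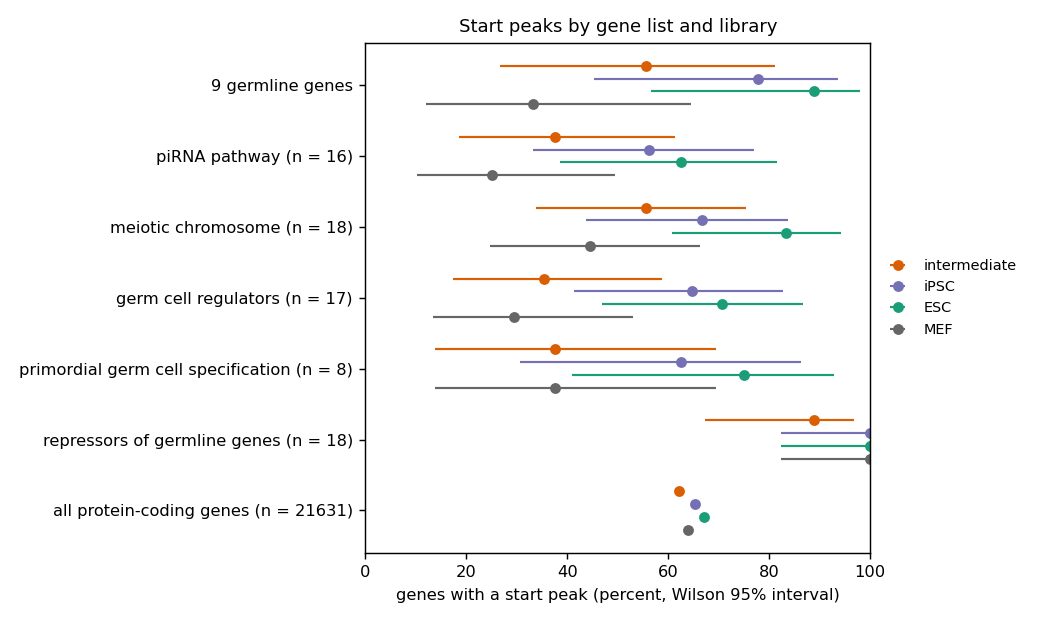
Percent of genes with a start peak in each library for the 9 genes, 5 lists made for comparison and all protein-coding genes; points are shares and bars Wilson 95% intervals. In each of the 4 further germline lists the share is higher in iPSC and ESC than in the intermediate, and the intervals overlap.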

How the data were processed

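CASAVA 1.8.2, Bowtie2 and Picard appear in the submitters' processing notes, beside MACS 1.4.2-1 and mm10, with no role or parameter stated. Each library came as 1 deposited peak list. The height, per the file headers, is a whole-number signal per peak from the authors' processing, at least 5 and with nothing that scales it to library size. Neighbouring peaks on one chromosome were exactly 10 bp apart in 36.4% to 49.0% of cases, so stretches had been divided into sub-peaks. The program that did this and wrote the heights is not named in the headers, and the heights may not be output of MACS. Peaks on the 19 autosomes and X were used. Peaks sharing at least 1 bp were merged into regions; a region is open in a library with a peak in it, and lack of a listed peak does not measure closed chromatin. Gene bodies came from RefSeq GRCm38.p6, the assembly that mm10 names, and start sites from its promoter table; for 4357 of 21631 protein-coding genes, Piwil2 among them, both gene ends were used. Exon positions were not used. Intervals on shares are Wilson 95% intervals and reflect counting error only. The overlap code was checked on simulated intervals (Python 3.11.15, pandas 2.3.3, scipy 1.17.1). Alternatives concerned flank, start window, height, sub-peaks, overlap and single genes. The genes and lists were chosen with earlier results of these data known. All 9 genes are named, and of the other lists up to 10 genes each whose start peak was present in some libraries and absent in others.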

Additional observations from a re-analysis of the deposited data

How the results depend on the processing

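The 18 values of counts and shares were recomputed under 16 alternatives, and 138 of 177 recomputed values stayed within 1.5 times the count or inside the interval of the share. The start base, the genes with a known strand alone and the settings without Piwil2 or Prdm1 were chosen after seeing the data, as were all settings of the gene body share. Values are given for the intermediate, iPSC, ESC and MEF in that order. Counting peaks over gene bodies alone gave 16, 31, 34 and 17, with 7 regions gained in the intermediate and 10 lost from MEF in each of the intermediate, iPSC and ESC. A flank of 5 kb gave 21 peaks in the intermediate, 32 in iPSC and 22 in MEF, and 10 regions gained in the intermediate. A flank of 50 kb gave 112, 103, 98 and 100 peaks, with 60, 61 and 42 regions gained and 51, 54 and 54 lost. Keeping the taller 50% of each list gave 26, 29, 30 and 24 peaks, with 16 regions gained in the intermediate and 20 in iPSC. Joined sub-peaks gave 32 peaks in the intermediate, 38 in ESC and 25 in MEF, and 19 regions gained in the intermediate. Start peaks covered the start base at 2 genes in the intermediate and 1 in MEF; a window of 0.5 kb gave 3 in the intermediate and one of 2.5 kb gave 5 in MEF. Without Prdm1 iPSC had 34 peaks and 18 gained regions, and without Piwil2 the gene body share of gained regions in the intermediate was 5%. Changes of window and of list follow from fewer or more peaks counted; the cause of the others was not tested. The share of pluripotent regions open in the intermediate stayed inside its interval throughout, between 15.4% and 40.0%. No paired analysis was possible because each group has 1 library. Read depth is unknown, so a missing peak may reflect it.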

Other observations

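The 4 promoters with CACGTG were those of the 4 genes with start peaks in the pluripotent cells and in neither other library, Ddx4, Sycp1, Sycp3 and Mael, a coincidence noticed after the values were seen. Over all protein-coding genes with a promoter sequence the match was counted for several patterns, but not for ESC alone, that of Sycp1. CACGTG was present at 39 of 392 genes with a start peak in iPSC and ESC alone, 9.95% (Wilson 95% interval 7.36 to 13.3). It was present at 43 of 467 genes with one in the intermediate, iPSC and ESC, 9.21% (6.91 to 12.2), and at 1558 of all 17274 genes, 9.02%. Genes with a start peak in every library had it in 12.1% of cases (11.5 to 12.8). Those with one in MEF alone had it in 2.25% (1.14 to 4.37) and those with none in 3.55% (3.06 to 4.12). The interval of iPSC and ESC alone holds the share over all genes and lies above those of MEF alone and of none. In the lists made for comparison, 5 of 13 piRNA pathway promoters, 5 of 14 of germ cell regulators and 3 of 15 of meiotic chromosome genes held it, against 2 of 18 of the repressors and 0 of 5 of the specification genes.

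The tallest region near the 9 genes lay in the downstream flank of Ddx4, within the neighbouring gene Il31ra (chromosome 13, 112577811 to 112579050), 1612 bp from the start of this cytokine receptor gene, which had no peak within 1 kb of its start in any library. Its heights were 840 in the intermediate, 741 in iPSC, 1616 in ESC and 2856 in MEF. In the intermediate 46 peaks of the whole list were taller, in iPSC 144, in ESC 38 and in MEF 38. The reads behind it were not used here. At Dazl the tallest peak of iPSC, ESC and MEF had its summit on the same base, 50292845, inside the gene and not at its start.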
